A study of Mus musculus with 11 samples.

Results

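The genes of late G2 and mitosis were followed in mouse leukaemia cells in which 3 histone demethylase genes were deleted. They are a list of 38 genes, chosen by name for their part in cell division and matched to the array through the RefSeq accession of each probe. All 38 had a probe, 53 probes in all, and all 38 were among the 25079 genes or unnamed features tested. The list was sorted here into 7 role groups, with 1 probe standing for each gene.

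The cells were L-GMP on a C57BL/6 background, that is granulocyte-macrophage progenitors made leukaemic with the fusion oncogene MLL-AF9. In all of them Kdm4a, Kdm4b and Kdm4c, which encode demethylases of histone H3, were floxed (Jmjd2a/b/c f/f). All also carried Rosa26::CreERT2, a Cre recombinase expressed from the Rosa26 locus and activated by 4-hydroxytamoxifen (OHT). The 4 lines came from leukaemic mice and grew with 20% serum and 10 ng/ml IL-3. Total RNA was hybridised to 11 one-colour arrays, 4 at 0 h without OHT, 4 at 48 h and 3 at 96 h with 500 nM OHT. Non-floxed cells given OHT were not analysed here, and cells without OHT were sampled at 0 h alone, so deletion, OHT, active Cre and time in culture cannot be told apart. All 0 h and 48 h arrays lay on 1 slide and all 96 h arrays on another, so slide and 96 h cannot be told apart either.

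Entry into mitosis is driven by the kinase Cdk1 bound to cyclins A and B. Polo-like and Aurora kinases then build the spindle, and the checkpoint proteins hold the anaphase-promoting complex inactive until every kinetochore is attached to microtubules. Genes of this programme are transcribed together late in the cycle, many of them through a promoter element called the cell cycle genes homology region (CHR) and through CCAAT boxes, so their RNA in a population is commonly read as a measure of how many cells are dividing.

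RefSeq (GRCm38.p6) held 34 promoters for 32 of the 38 genes, and these were searched for these letters, from 250 bases before to 50 after the gene's start. The motifs were chosen after the expression values had been seen. The CHR core TTTGAA, on either strand (TTCAAA when read on the other), was found in 24 of 34 promoters (70.6%), against 17.9% of all 32851 promoters of the same length. CCAAT, on either strand (ATTGG when read on the other), was found in 27 of 34 (79.4%), against 37.4% of all promoters. Both were present in 22 of 34 (64.7%), against 6.95% of all. Neither motif contains the other, and a match is a description of the sequence and not evidence of binding. The promoters of the genes that passed a test below and had a RefSeq entry (Cdk1, Bub1b and Pttg1), and of Cdc20, which was lower at 96 h than at 48 h on every array, follow with the matches in capitals.
Cdk1: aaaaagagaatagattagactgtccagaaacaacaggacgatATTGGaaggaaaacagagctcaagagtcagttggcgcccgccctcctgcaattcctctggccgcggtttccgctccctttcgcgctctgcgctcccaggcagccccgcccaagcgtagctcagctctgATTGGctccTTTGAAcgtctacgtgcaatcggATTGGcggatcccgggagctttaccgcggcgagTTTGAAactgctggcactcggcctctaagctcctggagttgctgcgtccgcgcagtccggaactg
Bub1b: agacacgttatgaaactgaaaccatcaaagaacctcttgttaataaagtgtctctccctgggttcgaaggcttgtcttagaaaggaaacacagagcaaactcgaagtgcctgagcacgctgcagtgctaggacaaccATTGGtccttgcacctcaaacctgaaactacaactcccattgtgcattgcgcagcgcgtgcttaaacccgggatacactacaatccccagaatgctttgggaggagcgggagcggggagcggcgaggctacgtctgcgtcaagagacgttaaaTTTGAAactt
Cdc20: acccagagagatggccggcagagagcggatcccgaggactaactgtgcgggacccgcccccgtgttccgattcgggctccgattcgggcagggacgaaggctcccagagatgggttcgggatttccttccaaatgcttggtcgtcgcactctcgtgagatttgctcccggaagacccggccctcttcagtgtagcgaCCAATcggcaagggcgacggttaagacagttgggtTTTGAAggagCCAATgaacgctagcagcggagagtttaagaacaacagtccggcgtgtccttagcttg
Pttg1: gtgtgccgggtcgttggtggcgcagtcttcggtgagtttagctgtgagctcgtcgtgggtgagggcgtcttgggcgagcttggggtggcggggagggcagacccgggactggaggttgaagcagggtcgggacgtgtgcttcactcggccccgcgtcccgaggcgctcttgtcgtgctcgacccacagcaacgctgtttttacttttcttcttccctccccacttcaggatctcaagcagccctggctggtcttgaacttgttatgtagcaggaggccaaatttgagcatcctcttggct
The Cdk1 promoter, chr10:69352863-69353162 on the minus strand, held 2 CHR cores, 71 and 15 bases before the start, and 3 CCAAT boxes. The Cdc20 promoter, chr4:118437294-118437593 on the minus strand, held a CHR core 18 bases before the start, between 2 CCAAT boxes. The Bub1b promoter, chr2:118597961-118598260 on the plus strand, held 1 CCAAT box and a CHR core 40 bases after the start. The Pttg1 promoter, chr11:43425932-43426231 on the minus strand, held neither. No RefSeq promoter entry was matched for Ccna2, Cdc25c, Aurkb, Incenp, Kif20a and Tpx2.

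A probe's level is given as its scaled log2 signal, which is log2 of the processed signal minus log2 of the array's 75th percentile. Probes well above background made up 51.08% to 57.77% of an array at 0 h, 49.49% to 58.69% at 48 h and 53.42% to 75.53% at 96 h. The floxed genes were lower on every OHT array than on every 0 h array, with a median log2 difference from 0 h of -3.30 at 48 h and -3.24 at 96 h, and 3 of 3 passed limma's test in both. Of the mitosis genes, 36 were well above background on all 11 arrays. The Aurkb probe was above background on 1 of 4 arrays at 0 h, 3 of 4 at 48 h and 2 of 3 at 96 h, and the Cenpf probe on 1 of 4, 0 of 4 and 3 of 3. Arrays are named by the number in the deposited file naming, called culture 1 to 4 here. The titles give the same numbers at 0 h and 48 h, but call the 96 h arrays of cultures 1, 3 and 4 replicates 1, 2 and 3. All 10 progenitor markers were above background on every array, with a summed log2 level of 9.77 to 10.10 at 0 h, 10.28 to 10.35 at 48 h and 10.15 to 10.19 at 96 h. Of these, limma called Mpo (myeloperoxidase) alone, higher than at 0 h by 4.33 at 48 h (adjusted p = 0.00199) and by 5.18 at 96 h (adjusted p = 0.00264), and its part in the results below was not tested.

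One array at 0 h stood apart in these genes. The mitosis genes were lowest of the 4 0 h arrays on that of culture 1 in 35 of 38 cases, against 26.4% of all genes. They were lowest of all 11 arrays there in 35 of 38 cases too, against 3575 of 25079 genes. The median mitosis gene lay 1.17 below its mean over the 11 arrays there (a log2 level of -1.17), at 0.36 on the culture 2 array, 0.01 on the culture 3 array and -0.47 on the culture 4 array. At 48 h the medians were 0.09, 0.14, 0.26 and 0.12 for cultures 1 to 4, and at 96 h they were 0.21, 0.22 and 0.34 for cultures 1, 3 and 4. The 0 h arrays spread widely, and the OHT arrays lay close together. In 32 of 38 genes the 0 h arrays ran, low to high, culture 1, 4, 3, 2, an order that 7.13% of all genes showed. The median SD of a mitosis gene was 0.68 at 0 h, 0.10 at 48 h and 0.10 at 96 h, against 0.23, 0.20 and 0.20 for all genes. The SD at 0 h exceeded both later SDs in 38 of 38 genes, against 38.7% of all genes. Without the culture 1 array the median SD at 0 h was 0.40 for the mitosis genes and 0.21 for all genes.

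**Figure D1:**
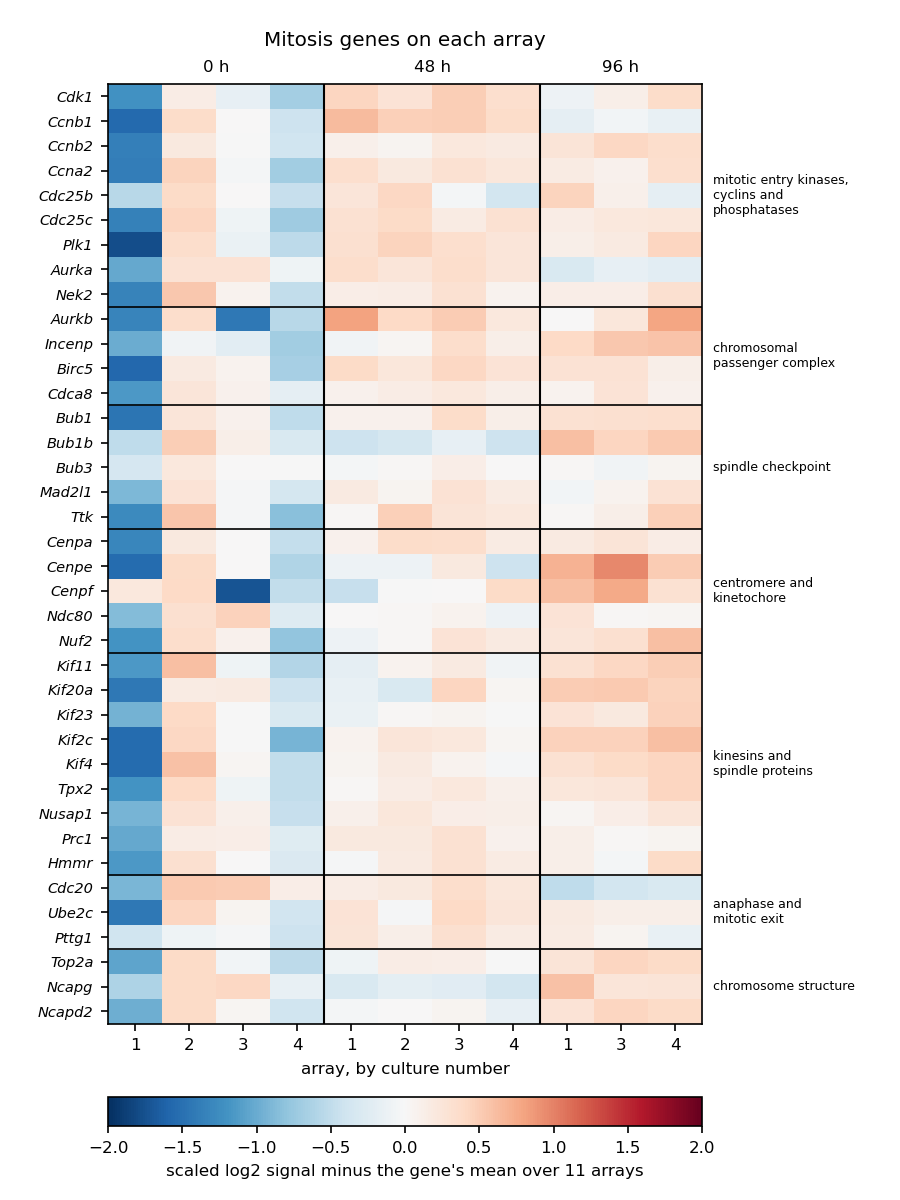
Each cell is the scaled log2 signal of a mitosis gene (38 genes in 7 role groups, down the page) on 1 array minus that gene's mean over the 11 arrays, with arrays by time (0, 48, 96 h) and culture number across. The 0 h array of culture 1 is the lowest in 35 of 38 genes, and the 48 h and 96 h arrays lie closer to each other than the 0 h arrays do.

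The low array differed in other cell cycle and cell type genes as well. On the 0 h array of culture 1, the mitosis genes lay at a median log2 difference of -1.14 from the mean of the other 0 h arrays, and 104 further mitosis genes at -0.72, with 98 of 104 lowest there. Genes of G1/S and DNA replication lay at -0.46, with 30 of 37 lowest there. Mature neutrophil markers (Camp, Ltf, S100a8 and others) lay at 1.53, with 6 of 10 highest there. The 7 monocyte and macrophage markers tested lay at 0.83, with 6 of 7 highest. Erythroid and megakaryocyte markers lay at 0.48 (3 of 7 highest) and lymphoid markers at -0.02 (3 of 7). Stromal and endothelial markers lay at 0.14 (1 of 7) and progenitor markers at -0.05 (2 of 10). All genes lay at 0.01, with 27.6% highest there. In RNA from a mixed culture, fewer dividing cells and less RNA of these genes in each cell cannot be told apart. Whether maturation of part of that culture bore on the mitosis genes was not tested. All 10 mature neutrophil markers were above background on all arrays, with their summed log2 level between 7.36 and 9.48 at 0 h, between 8.21 and 9.52 at 48 h and between 9.83 and 10.64 at 96 h. On the 0 h array of culture 1 it was 9.48 and on that of culture 2 it was 8.18. In culture 1 it was 9.52 at 48 h and 10.56 at 96 h, where the median mitosis gene lay at 0.09 and 0.21.

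**Figure D2:**
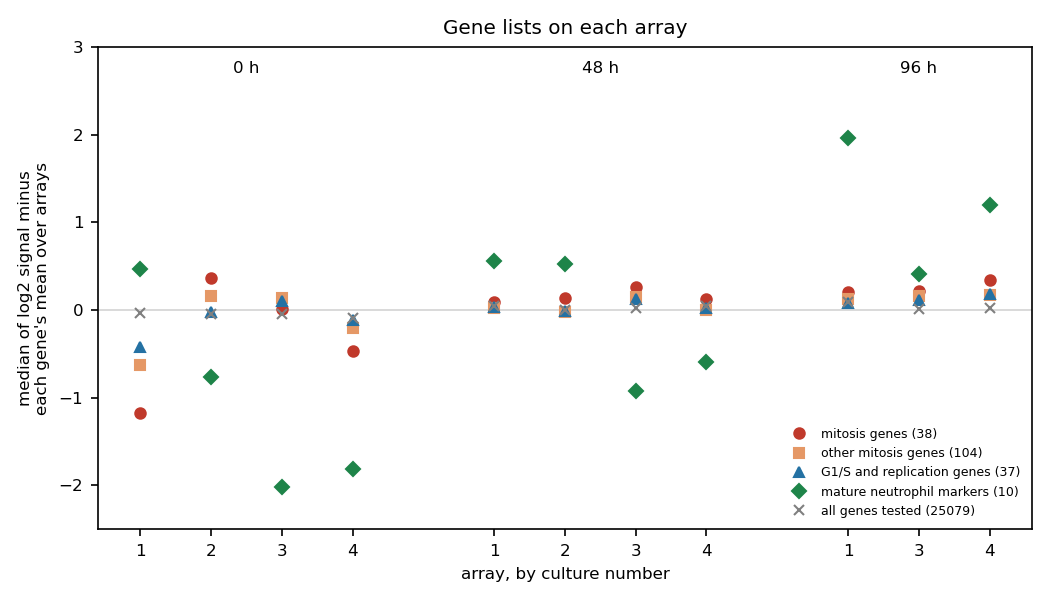
The y axis gives, for each array, the median over a list of scaled log2 signal minus each gene's mean over 11 arrays, with 5 lists by symbol and arrays by time and culture number on the x axis. The mitosis genes are lowest at -1.17 on the 0 h array of culture 1 and lie at 0.09 or above on every 48 h and 96 h array.

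At 48 h against 0 h the median log2 difference of the mitosis genes was 0.44, against 0.12 for all genes, and few of the differences passed the test. Under median scaling it was 0.21, against -0.10 for all genes, with 0 called (9.39% of all features in either direction). Limma with Benjamini-Hochberg adjustment over 25079 features called 3 of 38 higher and 0 lower, while 18.6% of all features were called, 10.5% higher and 8.03% lower. The 3 were Cdk1, the kinase of mitotic entry, Aurkb, the kinase of the chromosomal passenger complex, and Pttg1, securin, which holds separase inactive. At an unadjusted p under 0.05, in either direction, there were 9 of 38, against 34.7% of all features. The difference was above 0 in 36 of 38 genes (61.5% of all features), though within culture 2 it was below 0 in 28 of 38. The arrays of the 2 times did not overlap, with 48 h higher, in 4 genes, Cdk1, Ccnb1, Birc5 and Pttg1 (14.1% of all features), and with 48 h lower in 0 (9.82%). Leaving out the 0 h array of culture 1, limma called 0 of 38 at 48 h, where 6.41% of all features were called higher and 5.34% lower, and the median was 0.18. Without the 0 h array of culture 2, limma called 13 of 38 higher, against 11.8% of all features. The count higher was 0 without the 0 h array of culture 4 or any of the 48 h arrays of cultures 1, 3 and 4. In these fits 9.76% to 16.3% of all features were called in either direction, against 18.6% with all arrays. The count was 1 without the 0 h array of culture 3, the 48 h array of culture 2 or the 96 h array of culture 3. There 11.1%, 14.2% and 16.7% of all features were called.

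At 96 h against 0 h the median log2 difference was 0.60, against 0.11 for all genes. Under median scaling it was 0.22 against -0.28, with 0 called (10.2% of all features in either direction). Limma called 1 of 38 higher, Incenp, the scaffold of the chromosomal passenger complex, and 0 lower, while 9.56% of all features were called, 6.18% higher and 3.38% lower. There were 10 of 38 at an unadjusted p under 0.05, against 28.5% of all features. The difference was above 0 in 36 of 38 genes (61.1% of all features). The 96 h and 0 h arrays did not overlap in 6 genes, all higher at 96 h (16.4% of all features; 8.69% were lower), namely Ccnb2, Incenp, Bub1, Cenpe, Kif20a and Kif2c. Without the 0 h array of culture 1 the median was 0.32, 1 gene (Incenp) was called higher and 1 (Cdc20) lower, with 3.55% and 1.68% of all features. With the culture 2 array left out instead, 12 of 38 were called higher, against 7.81% of all features. With the culture 4 array or any 1 of the 96 h arrays left out, 0 of 38 were called higher. In those fits 2.8% to 3.88% of all features were called in either direction, against 9.56% with all arrays. Both comparisons use the same 0 h arrays. With culture number as a block, 2 of 38 were called higher at 96 h, Incenp and Cenpe (log2 difference 1.30, adjusted p = 0.0414 by limma), while 8.56% of all features were called higher.

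Between 96 h and 48 h some mitosis genes were above 0 and others below. The median log2 difference was 0.02, against 0.03 for all genes, and 20 of 38 genes were above 0 (53.6% of all features); under median scaling it was -0.14, against -0.13 for all genes. Culture 2 has no 96 h array, and with culture number as a block the median was 0.17, with 31 genes above 0 and 7 below. Limma called 1 of 38 higher at 96 h, Bub1b (BubR1), a checkpoint protein that binds Cdc20, and 0 lower, while 11.1% of all features were called, 5.17% higher and 5.95% lower. The 96 h and 48 h arrays did not overlap in 13 genes with 96 h higher and 3 with 96 h lower, against 14.2% and 13.6% of all features. The 3 lower genes were Ccnb1 (cyclin B1), Aurka (Aurora A) and Cdc20. The 13 higher genes held 6 of 9 kinesins and spindle proteins (Kif11, Kif20a, Kif23, Kif2c, Kif4 and Tpx2) and 3 of 3 genes of chromosome structure (Top2a, Ncapg and Ncapd2). In the fit of all 11 arrays the wide 0 h group enters the error of this comparison. In a fit of the 7 arrays of these 2 times alone, limma called 3 higher and 3 lower, while 3.84% of all features were called higher and 4.33% lower (Bub1b, Cenpe and Ncapg higher, and Ccnb1, Aurka and Cdc20 lower). A fit without the 0 h array of culture 1 called 2 higher (Bub1b and Ncapg) and the same 3 lower, against 5.04% and 5.55% of all features.

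**Figure D3:**
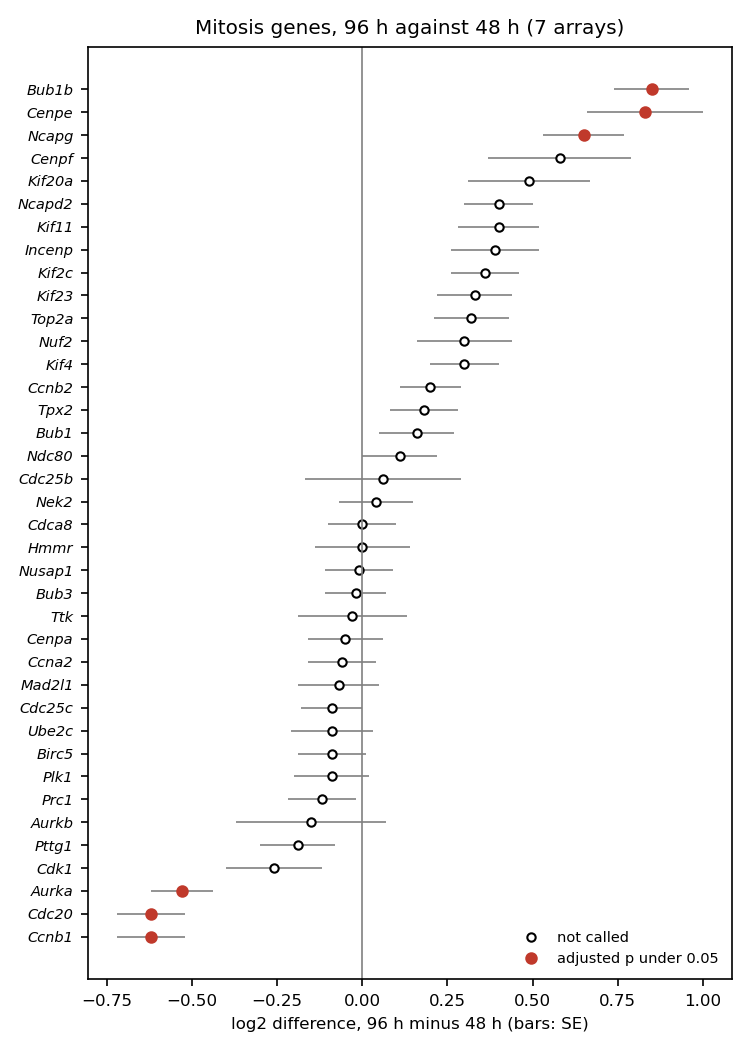
Points give the log2 difference of each of the 38 mitosis genes, 96 h minus 48 h, in limma's fit of the 7 arrays at these times, ordered by size with bars of 1 SE and filled points where the adjusted p was under 0.05. Bub1b, Cenpe and Ncapg lie to the right of 0 and Aurka, Cdc20 and Ccnb1 to the left.

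Among the 9 genes of mitotic entry, Cdk1 had a scaled log2 signal of 1.93, 3.30, 2.98 and 2.46 at 0 h (cultures 1 to 4), 3.57, 3.42, 3.64 and 3.49 at 48 h, and 3.04, 3.26 and 3.52 at 96 h (cultures 1, 3 and 4). Every 48 h array lay above every 0 h array, and the 96 h arrays overlapped both. Cdk1 rose at 48 h by a log2 difference of 0.86 (SE 0.25, 1.82-fold, adjusted p = 0.041 by limma, n = 4 against 4). At 96 h against 0 h the difference was 0.60 (SE 0.28, adjusted p = 0.18). The call at 48 h was lost without any 1 of the 4 48 h arrays, the 0 h arrays of cultures 1, 3 or 4, or the 96 h array of culture 3, with adjusted p up to 0.102. Under 13 other settings of the processing or fit it was lost in 3, with adjusted p up to 0.224. The other 2 probes of Cdk1 gave 0.51 and 0.77 at 48 h, neither called. At 0 h the first of these had -1.66, -2.51, -2.48 and -2.64, with culture 1 highest, unlike the main probe. The second had -4.17, -2.36, -2.88 and -3.32, with culture 1 lowest.

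Ccnb1, cyclin B1, the partner of Cdk1, had 2.98, 4.90, 4.55 and 4.12 at 0 h, 5.17, 5.02, 5.03 and 4.90 at 48 h, and 4.36, 4.48 and 4.39 at 96 h. On this main probe it was highest at 48 h, where the lowest array and the highest 0 h array were both at 4.90. Its 96 h arrays lay inside the 0 h range. The other probes of Ccnb1 differed by 0.84 and 1.12 at 48 h against 0 h, neither called. At 96 h against 48 h they differed by -0.31 and -0.56, neither called. On the former, the 0 h array of culture 2 (2.54) lay above every 48 h array (2.22 to 2.44). Its 48 h and 96 h arrays met at 2.22. On the latter, every 48 h array (2.30 to 2.41) lay above every 0 h array (up to 2.22) and 96 h array (up to 1.99). For the main probe the difference at 48 h against 0 h was 0.89 (SE 0.33, adjusted p = 0.0853 by limma). At 96 h against 48 h it was -0.62 (SE 0.36, adjusted p = 0.29). In limma's fit of the 7 later arrays, the difference at 96 h against 48 h had SE 0.10 and an adjusted p of 0.0247. Aurka, which matures the centrosomes, likewise had 4.79, 4.93 and 4.88 at 96 h against 5.45, 5.33, 5.45 and 5.34 at 48 h, a difference of -0.53 (adjusted p = 0.0282 in the 7-array fit and 0.233 over 11 arrays). Cdc25b, a phosphatase that activates Cdk1, had 0.60, 1.55, 1.17 and 0.70 at 0 h, 1.41, 1.58, 1.12 and 0.79 at 48 h, and 1.60, 1.27 and 0.98 at 96 h. Its groups overlapped, and it differed by 0.22 at 48 h against 0 h (SE 0.25, adjusted p = 0.555), the smallest difference of its role group. Plk1, the polo-like kinase, spread widely at 0 h, with 3.19 on the culture 1 array and 5.32 on that of culture 2, and differed by 0.86 at 48 h (adjusted p = 0.123). Ccnb2, Ccna2, Cdc25c and Nek2 differed by 0.53, 0.69, 0.72 and 0.47 at 48 h against 0 h, none called.

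The chromosomal passenger complex, which corrects faulty attachments, has 4 members on the list. Aurkb had -5.37, -3.70, -5.49 and -4.61 at 0 h, -3.25, -3.66, -3.54 and -3.84 at 48 h, and -4.05, -3.83 and -3.27 at 96 h. The culture 2 array at 0 h lay above the culture 4 array at 48 h, so the groups overlapped. The difference at 48 h was 1.22 (SE 0.36, adjusted p = 0.0419 by limma), with the probe above background on 3 of 4 arrays at 48 h and 1 of 4 at 0 h, so its size rests mostly on 0 h signals not above background. It was 0.10 (adjusted p = 0.447) in the authors' deposited table and with the same background correction. Under 12 other settings that held the probe, the call was lost in 7. It was also lost without any 1 of the 4 48 h arrays. Leaving out the 0 h array of culture 1, 3 or 4, or the 96 h array of culture 3, lost it as well. With 1 array left out, limma's adjusted p reached 0.104. Incenp had 4.46, 5.39, 5.25 and 4.76 at 0 h, 5.39, 5.50, 5.81 and 5.58 at 48 h, and 5.85, 6.00 and 6.03 at 96 h. Every 96 h array lay above every array at 48 h and at 0 h. Incenp rose at 96 h against 0 h by 0.99 (SE 0.21, 1.99-fold, adjusted p = 0.0231 by limma, n = 3 against 4), and its second probe rose by 0.93. That call was lost without the 0 h array of culture 4 or any 1 of the 3 96 h arrays, with adjusted p up to 0.0688. Under 13 other settings it was lost in 2, with adjusted p up to 0.17. At 48 h against 0 h Incenp differed by 0.60 (adjusted p = 0.0564), or adjusted p = 0.0377 with culture number as a block, where 12.2% of all features were called higher. Cdca8 (borealin) had 4.25, 5.64, 5.48 and 5.22 at 0 h, 5.49, 5.54, 5.61 and 5.51 at 48 h, and 5.47, 5.67 and 5.48 at 96 h, with a difference of 0.39 at 48 h (adjusted p = 0.297). Birc5 (survivin) differed by 0.82 at 48 h against 0 h (adjusted p = 0.101).

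**Figure D4:**
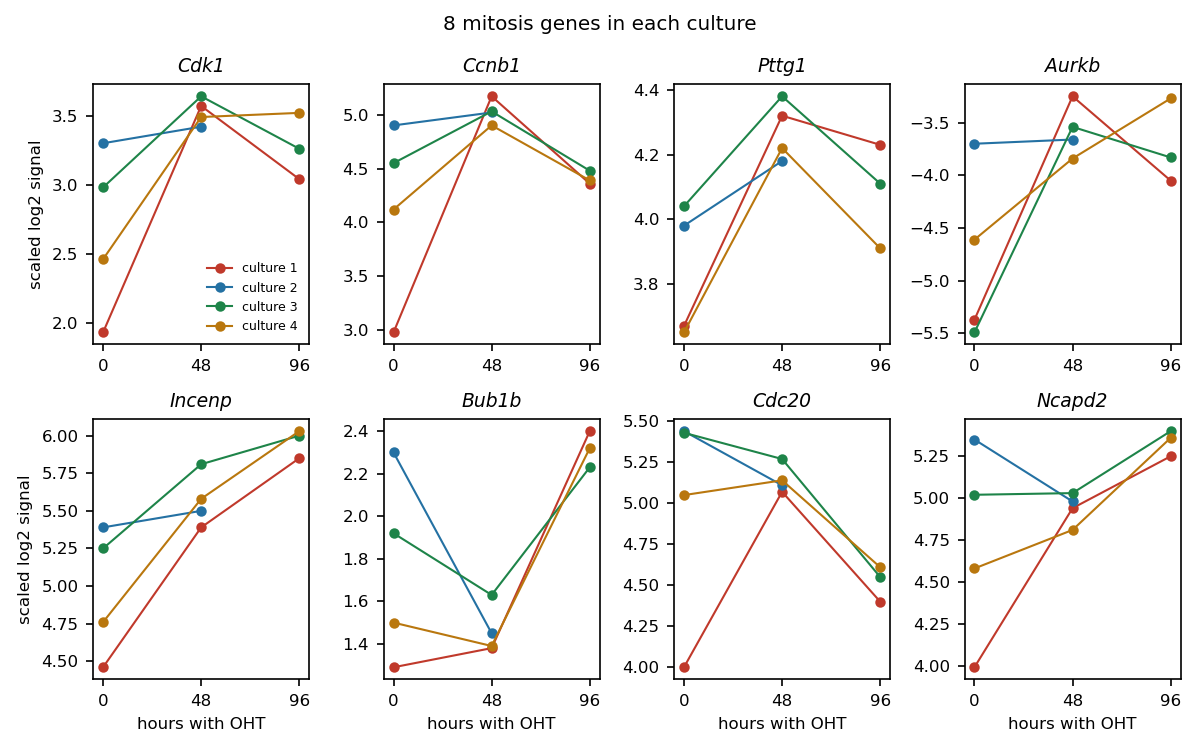
Each panel plots the scaled log2 signal of 1 gene against hours with OHT (0, 48, 96) and joins the arrays of a culture, with culture 2 measured at 0 h and 48 h alone. Culture 1 starts lowest in 6 of the 8 genes, Incenp is highest at 96 h in each of the 3 cultures measured then, and Bub1b lies lowest at 48 h in cultures 2, 3 and 4.

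Of the 5 spindle checkpoint genes, Bub1b had 1.29, 2.30, 1.92 and 1.50 at 0 h, 1.38, 1.45, 1.63 and 1.39 at 48 h, and 2.40, 2.23 and 2.32 at 96 h. Every 96 h array lay above every 48 h array, and the 0 h arrays reached both. Bub1b rose at 96 h against 48 h by 0.85 (SE 0.21, 1.81-fold, adjusted p = 0.0289 by limma, n = 3 against 4), and within cultures 1, 3 and 4 it was higher by 1.02, 0.60 and 0.93. It kept an adjusted p under 0.05 without any single 0 h array, but lost it without the 48 h arrays of cultures 1, 2 or 4 or any 1 of the 96 h arrays, with adjusted p up to 0.0972. Under 13 other settings the call was lost in 3, with adjusted p up to 0.155. Bub3, which brings Bub1 and Bub1b to kinetochores, had 4.82, 5.36, 5.15 and 5.14 at 0 h, 5.11, 5.17, 5.28 and 5.15 at 48 h, and 5.18, 5.08 and 5.21 at 96 h. It was nearly level, with a difference of 0.06 at 48 h against 0 h (SE 0.11, adjusted p = 0.728). Ttk (Mps1), the kinase that starts checkpoint signalling, had -2.64, -0.82, -1.39 and -2.20 at 0 h, -1.35, -0.90, -1.12 and -1.16 at 48 h, and -1.35, -1.25 and -0.89 at 96 h. Its 48 h and 0 h arrays overlapped, and the difference was 0.63 (SE 0.34, adjusted p = 0.212). Bub1 and Mad2l1 differed by 0.57 and 0.42 at 48 h against 0 h, with no call.

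Of the 5 centromere and kinetochore genes, Cenpa, the histone H3 variant of centromeres, had 2.30, 3.80, 3.61 and 3.12 at 0 h, 3.69, 3.97, 3.95 and 3.76 at 48 h, and 3.78, 3.85 and 3.74 at 96 h. The groups overlapped, with a difference of 0.64 at 48 h against 0 h (SE 0.27, adjusted p = 0.126 by limma). Cenpe, a kinesin that congresses chromosomes, had 1.90, 3.81, 3.44 and 2.84 at 0 h, 3.33, 3.34, 3.63 and 3.02 at 48 h, and 4.13, 4.39 and 3.95 at 96 h. Its 96 h arrays lay above all others, with differences of 1.16 at 96 h against 0 h (SE 0.38, adjusted p = 0.0761) and 0.83 at 96 h against 48 h (adjusted p = 0.181, or 0.0377 in the 7-array fit). Ndc80, of the complex that grips microtubules, had 0.39, 1.58, 1.72 and 1.01 at 0 h, 1.28, 1.29, 1.34 and 1.17 at 48 h, and 1.54, 1.29 and 1.30 at 96 h, with a difference of 0.09 at 48 h (SE 0.25, adjusted p = 0.817). The dim Cenpf probe had -4.32, -4.14, -6.26 and -5.02 at 0 h, -4.99, -4.55, -4.53 and -4.15 at 48 h, and -3.93, -3.77 and -4.23 at 96 h. The Cenpf probe was not well above background at 48 h, so the size of its difference at 96 h against 48 h is uncertain. The measured difference was 0.58 (SE 0.44, adjusted p = 0.427 by limma), and the arrays of the 2 times overlapped. The probe met the filter of at least 3 arrays only through the 96 h arrays. Nuf2, the partner of Ndc80, differed by 0.48 at 48 h against 0 h (adjusted p = 0.286).

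None of the 9 kinesins and spindle proteins was called by limma in the 3 comparisons over 11 arrays (18.6%, 9.56% and 11.1% of all features). At an unadjusted p under 0.05 there were 0 at 48 h and 2 at 96 h, both against 0 h, where 34.7% and 28.5% of all features passed. Kif2c (MCAK), which depolymerises microtubules, had -1.45, 0.51, 0.08 and -0.83 at 0 h, 0.16, 0.34, 0.30 and 0.14 at 48 h, and 0.56, 0.55 and 0.69 at 96 h. Every 96 h array lay above the others, and the differences were 0.66 at 48 h (SE 0.35, adjusted p = 0.209 by limma) and 1.02 at 96 h (SE 0.38, adjusted p = 0.11), both against 0 h. Kif23, a motor of cytokinesis, had -0.19, 1.15, 0.74 and 0.45 at 0 h, 0.62, 0.77, 0.81 and 0.74 at 48 h, and 1.03, 0.95 and 1.22 at 96 h. Its 48 h arrays lay inside the 0 h range, with a difference of 0.20 (SE 0.23, adjusted p = 0.577). The group's median was 0.43 at 48 h and 0.64 at 96 h, both against 0 h, and 0.30 at 96 h against 48 h.

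Cdc20, the activator of the anaphase-promoting complex, had 4.00, 5.44, 5.43 and 5.05 at 0 h, 5.07, 5.11, 5.27 and 5.14 at 48 h, and 4.40, 4.55 and 4.61 at 96 h. Every 96 h array lay below every 48 h array and above the culture 1 array at 0 h alone. The difference at 96 h against 48 h was -0.62 (SE 0.30, adjusted p = 0.20 over 11 arrays by limma and 0.025 in the 7-array fit). Without the 0 h array of culture 1, Cdc20 differed by -0.79 at 96 h against 0 h (adjusted p = 0.0211), against -0.46 (adjusted p = 0.331) with it. Pttg1 had 3.67, 3.98, 4.04 and 3.65 at 0 h, 4.32, 4.18, 4.38 and 4.22 at 48 h, and 4.23, 4.11 and 3.91 at 96 h. Every 48 h array lay above every 0 h array, and it was the member least low on the 0 h array of culture 1 apart from Cenpf. Pttg1 rose at 48 h by 0.44 (SE 0.12, 1.35-fold, adjusted p = 0.0331 by limma, n = 4 against 4). That call was lost without the 0 h arrays of cultures 1 or 4 or the 48 h arrays of cultures 1, 3 or 4, with adjusted p up to 0.09. The second probe of Pttg1 rose by 1.25, but it was dim. At 0 h it had -5.11 to -3.47 and was above background on 3 of 4 arrays, so the size of its difference is uncertain. Under 13 other settings the call of the main Pttg1 probe was lost in 3, with adjusted p up to 0.514. Ube2c, the ubiquitin-conjugating enzyme of the complex, had 3.03, 4.88, 4.51 and 4.08 at 0 h, 4.73, 4.44, 4.85 and 4.70 at 48 h, and 4.64, 4.58 and 4.58 at 96 h, with a difference of 0.56 at 48 h (SE 0.32, adjusted p = 0.246).

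Among the 3 genes of chromosome structure, Top2a, the topoisomerase that untangles sister DNA, had 2.51, 3.95, 3.51 and 3.04 at 0 h, 3.47, 3.71, 3.69 and 3.56 at 48 h, and 3.82, 3.99 and 3.95 at 96 h. Its 96 h arrays lay above all 48 h arrays, with a difference of 0.32 (SE 0.27, adjusted p = 0.496 by limma). Ncapd2, a condensin subunit, had 3.99, 5.35, 5.02 and 4.58 at 0 h, 4.94, 4.98, 5.03 and 4.81 at 48 h, and 5.25, 5.40 and 5.36 at 96 h. The difference at 96 h against 48 h was 0.40 (SE 0.26, adjusted p = 0.35), with no overlap. Ncapg, another condensin subunit, had -1.33, -1.67 and -1.66 at 96 h against -2.23, -2.12, -2.15 and -2.29 at 48 h, a difference of 0.65 (SE 0.23, adjusted p = 0.0961, or 0.0303 in the 7-array fit).

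Within cultures the size of the difference from 0 h went with how low the 0 h array was. The median 48 h minus 0 h log2 difference over the 38 genes was 1.22 in culture 1, -0.18 in culture 2, 0.24 in culture 3 and 0.56 in culture 4. The genes above 0 numbered 37, 10, 33 and 36 of 38 in cultures 1 to 4, against 56.3%, 55.0%, 56.6% and 60.4% of all genes. At 96 h minus 0 h the medians were 1.31, 0.22 and 0.78 in cultures 1, 3 and 4. At 96 h minus 48 h, which does not use the 0 h arrays, they were 0.12, -0.02 and 0.19. These are differences between single arrays and carry no error of their own, and a difference from a low 0 h array is high by construction. Culture 2, which has no 96 h array, was the highest 0 h array in 34 of 38 genes (26.0% of all genes).

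**Figure D5:**
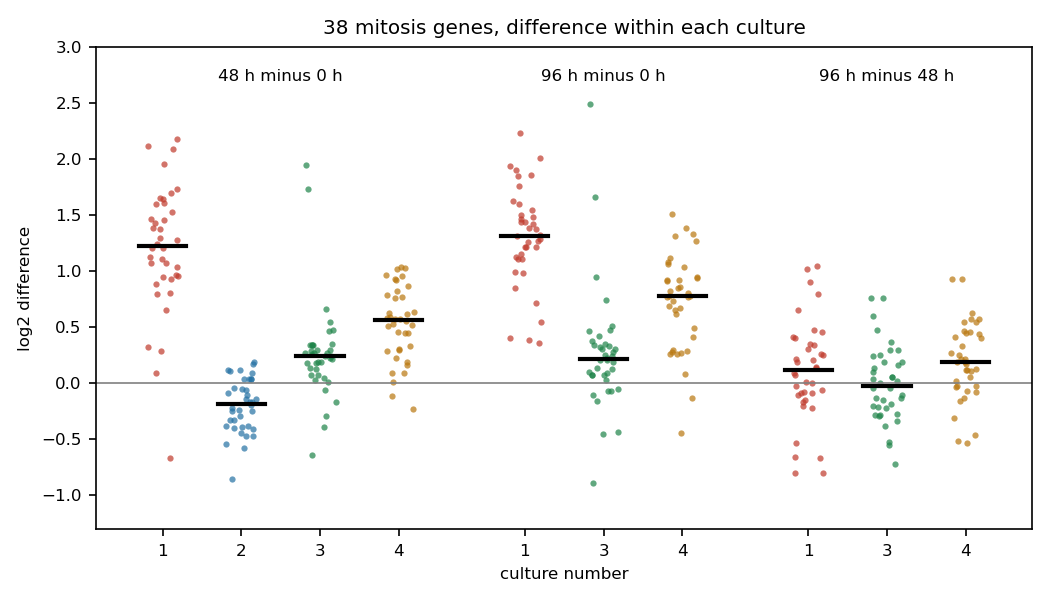
Points are the 38 mitosis genes and the bar their median, with the log2 difference between 2 arrays of 1 culture on the y axis and the comparison and culture number on the x axis. The median at 48 h minus 0 h is 1.22 in culture 1 and -0.18 in culture 2, and at 96 h minus 48 h the medians lie between -0.02 and 0.19.

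The members were also sorted by promoter motif for their level on the 0 h array of culture 1. The 20 genes with both motifs lay at a median of -1.14 from the other 0 h arrays. The 12 other genes with a promoter entry, with 1 motif or none, lay at -1.23. Among these 12, the 5 genes with neither, Birc5, Mad2l1, Nuf2, Nusap1 and Pttg1, lay at -0.92. Whether the motifs bore on the level was not tested.

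Of 104 further mitosis genes, limma called 9 higher and 2 lower at 48 h against 0 h, then 4 higher and 3 lower for 96 h against 0 h, and 4 higher and 6 lower between 96 h and 48 h. The shares of all features called higher and lower were 10.5% and 8.03%, 6.18% and 3.38%, and 5.17% and 5.95%. Without the 0 h array of culture 1 the counts were 4 and 3, 2 and 1, and 5 and 7, against 6.41% and 5.34%, 3.55% and 1.68%, and 5.04% and 5.55% of all features. Their median log2 differences were 0.16, 0.29 and 0.11 for the 3 comparisons. Mki67, the Ki-67 antigen of cycling cells, averaged 4.79 ± 0.21 at 48 h (SD, n = 4) and 3.58 ± 0.87 at 0 h (n = 4), a difference of 1.21 (adjusted p = 0.0422 by limma), and 5.27 ± 0.26 at 96 h (n = 3), 1.68 above 0 h (adjusted p = 0.0288). Its 0 h arrays had 2.56, 4.67, 3.69 and 3.41 in cultures 1 to 4. That of culture 2 lay above the 48 h arrays of cultures 1 and 4 (4.66 and 4.59), while every 96 h array lay above every 0 h array. Cep55, which guides abscission, differed by 1.25 at 48 h against 0 h (adjusted p = 0.0134), the kinetochore genes Spc25 by 0.92 (adjusted p = 0.0471) and Zwint by 0.82 (adjusted p = 0.00268). Spc25 overlapped between these times, with 5.28 on the 0 h array of culture 2 and 5.24 on the 48 h array of culture 1. Cit, citron kinase of cytokinesis, differed by 1.20 at 96 h against 0 h (adjusted p = 0.0289) and Numa1, which anchors spindle poles, by 0.81 (adjusted p = 0.0273). Between 96 h and 48 h, Numa1 differed by 1.19 (adjusted p = 0.0057) and Smc1a, a cohesin subunit, by 0.75 (adjusted p = 0.0271). Cdc27, a subunit of the anaphase-promoting complex, differed by -0.66 (adjusted p = 0.016) and Knstrn by -0.62 (adjusted p = 0.0442).

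Of 37 genes of G1/S and DNA replication, limma called 3 higher and 0 lower at 48 h against 0 h, then 2 higher and 0 lower for 96 h against 0 h, and 0 higher and 1 lower between 96 h and 48 h. The shares of all features were 10.5% and 8.03%, 6.18% and 3.38%, and 5.17% and 5.95%, as above. Without the 0 h array of culture 1 these counts were 2 and 1, 1 and 0, and 2 and 1, against the shares given for that fit. Fen1, a flap nuclease, differed by 0.83 at 48 h against 0 h (adjusted p = 0.012). Orc1, of the origin recognition complex, and Chaf1a, of chromatin assembly, differed by 0.65 (adjusted p = 0.038) and 0.75 (adjusted p = 0.0252) at 96 h against 0 h. Of 10 cell cycle inhibitors, limma called 0 higher in the 3 comparisons (10.5%, 6.18% and 5.17% of all features). It called 1, 0 and 1 lower (8.03%, 3.38% and 5.95%). At an unadjusted p under 0.05 in either direction there were 3 at 48 h and 4 at 96 h, both against 0 h. The shares of all features were 34.7% and 28.5%. Rb1, the retinoblastoma protein, differed by -0.72 at 48 h against 0 h (adjusted p = 0.0107), and Cdkn1a (p21) by -0.69 at 96 h against 48 h (adjusted p = 0.0449).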

How the data were processed

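RNA was measured on 11 one-colour (Cy3) Agilent arrays. Per the file headers, Feature Extraction 11.0.1.1 wrote the scanner files on a design built on mm9. The main values start from the deposited intensity called processed signal. Per the file headers, its background was subtracted and its spatial trend removed array by array, with no scaling between arrays. The deposited 0 or 1 flags mark spots well above background, outlier spots and saturated spots. A series table deposited by the authors is on the log2 scale; the submitters' processing notes name limma, with no version found. It matched scanner values that were normexp-corrected (offset 50) and then quantile-normalized (r = 0.999984), and its column medians ran from 6.17 to 6.19. There were 0 columns of other samples.

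Each array had 62976 spots, 59305 of them not controls. Outlier spots were dropped (125 to 194 per array), and 0 spots were saturated. The value was log2 of the processed signal minus log2 of the array's 75th percentile. Spots of a probe were averaged (55681 probes, 27656 with a RefSeq symbol on GRCm38.p6 and 28025 without). Probes above background on at least 3 arrays were kept (34269), and the probe with the highest mean stood for a gene. Different probes of a gene were never called in opposite directions among the mitosis genes.

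Limma 3.58.1 in R 4.3.3 (lmFit and eBayes, 2-sided, with the data.table package, version 1.17.8) took the 11 arrays as 3 groups, which left 8 residual degrees of freedom. P-values were adjusted by Benjamini-Hochberg over 25079 features. A feature was called at an adjusted p under 0.05. The method was also run on simulated data, with 1 spread per gene in all groups. The mitosis genes spread more widely at 0 h than later, so that run does not show how the test behaves for them. Figures were drawn with matplotlib. The number of arrays, 3 or 4 a group, limits the precision, and p-values measure only the spread between these arrays, since the sources used here do not say that each array came from a separate animal. Values on every array are given for genes called, for the largest and smallest differences at 48 h in each role group, and for dim probes. From the other lists the 5 called genes with the largest differences per comparison are named. Rb1, the cell cycle inhibitor called at 48 h against 0 h, is named besides these. Aurka, Cenpe, Ncapg, Plk1 and other members outside these rules were chosen after their values were seen. The members and lists were chosen with earlier results of these data known.

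Pairing was checked on deviations from the group means. By the number in the deposited file naming, each of 10 same-number pairs correlated at 0.12 to 0.36 and 10 of 11 arrays were closest to their own number. By the title number, which differs at 96 h, the range was -0.04 to 0.36, with 4 of 11.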

Additional observations from a re-analysis of the deposited data

Results flagged for a closer look

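In 54 genes, the highest and lowest of 4 arrays were checked for a gap to the nearest array in 108 groups of 4, and 2 had a gap larger than Dixon's 95% critical value for a share of the group's range. Chance alone passes about 1 in 20 groups. Bub1, a checkpoint kinase, had a scaled log2 signal of 2.07 on the 48 h array of culture 3, against 1.83 on the nearest array (gap 0.846 of the range). Orc1, of the origin recognition complex, had -1.73 on the 48 h array of culture 4, against -1.20 on the nearest (gap 0.905 of the range).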

How the results depend on the processing

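Each result was recomputed under other scalings, background corrections, filters, probe choices, array weights, blocks and left-out arrays. Median scaling, which centres each array on its median, moved the median of all genes to -0.10, -0.28 and -0.13 in the 3 comparisons (48 h with 0 h, then 96 h with 0 h and with 48 h). It gave 0 mitosis genes called higher in each, where 9.39%, 10.2% and 3.67% of all features were called in either direction. The median of the mitosis genes was -0.14 at 96 h against 48 h. For 48 h against 0 h the number called higher was 0 with no filter on dim probes, 5 with array weights and 1 with only the 2 groups compared. Of all features, 7.17%, 22.9% and 15.4% were then called in either direction. At 96 h against 0 h the number called higher was 0 with only the 2 groups compared, where 1.73% of all features were called. It was 2 with normexp, the authors' deposited table, probes above background on all 11 arrays or array weights (10.6% to 14.7% of all features). With the replicate block by file-name number or slide row as a term it was also 2 (14% and 7.65%). At 96 h against 48 h it was 0 with no filter, 0 with the replicate block by title number, and 3 with only the 2 groups compared. The last also gave 3 lower. Of all features, 3.7%, 6.38% and 8.16% were called in either direction. The file-name block gave a median of 0.17 at 96 h against 48 h. It called 4, 2 and 1 genes higher in the 3 comparisons, where 21.4%, 14% and 12.2% of all features were called in either direction. The pairing by title number gave 2, 1 and 0, against 15.9%, 5.92% and 6.38%. Leaving out 1 array at a time gave 0 to 13 called higher at 48 h against 0 h. For 96 h against 0 h it gave 0 to 12 higher and 0 to 1 lower, and between 96 h and 48 h 0 to 2 higher and 0 to 3 lower. The share of all features called in either direction ran from 9.76% to 21.7%, 2.8% to 13.1% and 3.94% to 11.8% in the 3 comparisons.

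Single genes turned their sign as follows; the cause was not tested. With median scaling, Cdc25b had -0.01, -0.11 and -0.10 in the 3 comparisons, Ndc80 -0.13, -0.18 and -0.05, Bub3 -0.16 and -0.34 against 0 h, and Pttg1 -0.14 and Ccnb1 -0.11 at 96 h against 0 h. In the 48 h comparison with 0 h, Kif23 had -0.03, Cdc20 -0.06 and Ncapd2 -0.02. Quantile normalization gave Bub3 -0.02 at 48 h against 0 h, and 0.04 between 96 h and 48 h. Normexp and the deposited table gave Aurkb -0.01 at 96 h against 0 h, and Ttk 0.05 and Bub3 0.03 between 96 h and 48 h. In that comparison the file-name block gave Aurkb 0.02, Ttk 0.16, Cenpa 0.07 and Bub3 0.02, slide row gave Ttk 0.01, and the title block gave Cdc25b -0.07. With 1 array left out, ranges that crossed 0 were -0.37 to 0.02 for Aurkb, -0.17 to 0.06 for Ttk, -0.10 to 0.21 for Cdc25b and -0.05 to 0.02 for Bub3 at 96 h against 48 h. For 48 h against 0 h they were -0.04 to 0.14 for Bub3, -0.17 to 0.28 for Ndc80, -0.04 to 0.40 for Kif23, -0.16 to 0.32 for Cdc20, -0.05 to 0.41 for Ncapd2 and -0.06 to 0.64 for Cenpf. For 96 h against 0 h they were -0.11 to 0.53 for Ccnb1, -0.05 to 0.12 for Bub3 and -0.06 to 0.39 for Ndc80.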
